A study of Mus musculus with 8 samples.

Results

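The interferon regulatory factor genes Irf1, Irf2, Irf3, Irf4, Irf5, Irf7, Irf8 and Irf9 were taken by symbol from a table of raw read counts for 23478 mouse genes. All 8 were in the table and passed the filter on low counts, as did 17069 genes in all. Interferon regulatory factors are transcription factors that share a DNA-binding domain and recognise GAAA-containing elements in the promoters of interferon genes and interferon-responsive genes. In the response to interferon-gamma, the receptor kinases Jak1 and Jak2 start a signal that reaches gamma-activated sites in promoters and turns on Irf1, which in turn acts on genes of antigen presentation and cell defence. Irf9 acts in the complex ISGF3 downstream of type I interferon, Irf3, Irf5 and Irf7 carry signals from sensors of microbial nucleic acids, and Irf4 and Irf8 direct the development of lymphoid and myeloid cells.

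RNA had been sequenced in 8 libraries that form 4 groups of 2 replicates, which the labels call biological. Disseminated cancer cells (DCC) were taken from marrow of mice whose breast cancer had metastasised spontaneously and were cultured with interferon-gamma (DCC IFN-gamma) or as controls (DCC control). TUBO is a breast cancer cell line, known as a clone from a mammary carcinoma of a neuT mouse. The early lesion group held cancer cells isolated from early mammary tumours, with a label that names neuT, the activated rat Erbb2 oncogene. Every group carries the genotype label WT, and the dose and duration of interferon-gamma and the age of the mice are not given in the sources used here. No label says whether these replicates came from separate mice or cultures, so the p-values measure the spread between these libraries, which may be technical.

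Gene counts totalled 15432210 to 30168475 per library, and levels are given as CPM, counts scaled to the same total in each library, with library sizes adjusted by the TMM method. Reads assigned to no gene made up 35.2% to 63.7% of the table, with the largest share outside annotated features in DCC control replicate 1 (49.2%) and early lesion replicate 2 (44.1%). Of 10 epithelial markers, the summed level was 0.367 to 0.501 CPM in DCC IFN-gamma and 2.81 to 3.59 CPM in DCC control, against 5771 to 6217 CPM in TUBO and 3229 to 3396 CPM in early lesion. In DCC IFN-gamma, 5 of these 10 markers (Epcam, Krt5, Krt14, Cldn4 and Cldn7) had no counts, so the epithelial markers of mammary cancer cells were at or near 0 in the cultures labelled disseminated cancer cells. Summed stromal markers stood at 708 to 1148 CPM in DCC IFN-gamma, 7419 to 8545 CPM in DCC control, 8.43 to 14.5 CPM in TUBO and 14.8 to 17.0 CPM in early lesion. Summed levels of 6 osteoblast markers were 134 to 252 CPM in DCC IFN-gamma, 2332 to 2682 CPM in DCC control, 119 to 129 CPM in TUBO and 25.9 to 32.1 CPM in early lesion. Of these 6 markers 3 fell with interferon-gamma, beside 8.83% of all genes called lower at an adjusted p under 0.05. In DCC control 5 were higher than in early lesion, beside 19.1% of all genes called higher. The part of such cells in the differences given here was not tested. In bulk RNA, a change in the share of cells of a type and a change in RNA per cell cannot be told apart.

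With interferon-gamma, 6 of the 8 genes rose in the DCC cultures (Irf1, Irf2, Irf5, Irf7, Irf8 and Irf9) and none fell. Irf3 and Irf4 did not pass the test. The background in this comparison was 21.4% of genes called in either direction, 12.6% called higher and 8.83% called lower, at an adjusted p under 0.05 in edgeR's quasi-likelihood test. The median log2 change of the 8 genes was 3.63, beside -0.20 for all genes tested. Relative to that median of all genes, the 6 that rose changed by 2.08 to 7.47 on the log2 scale. Each of the 6 calls held under all 16 alternative settings, including every fit without 1 library.

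**Figure D1:**
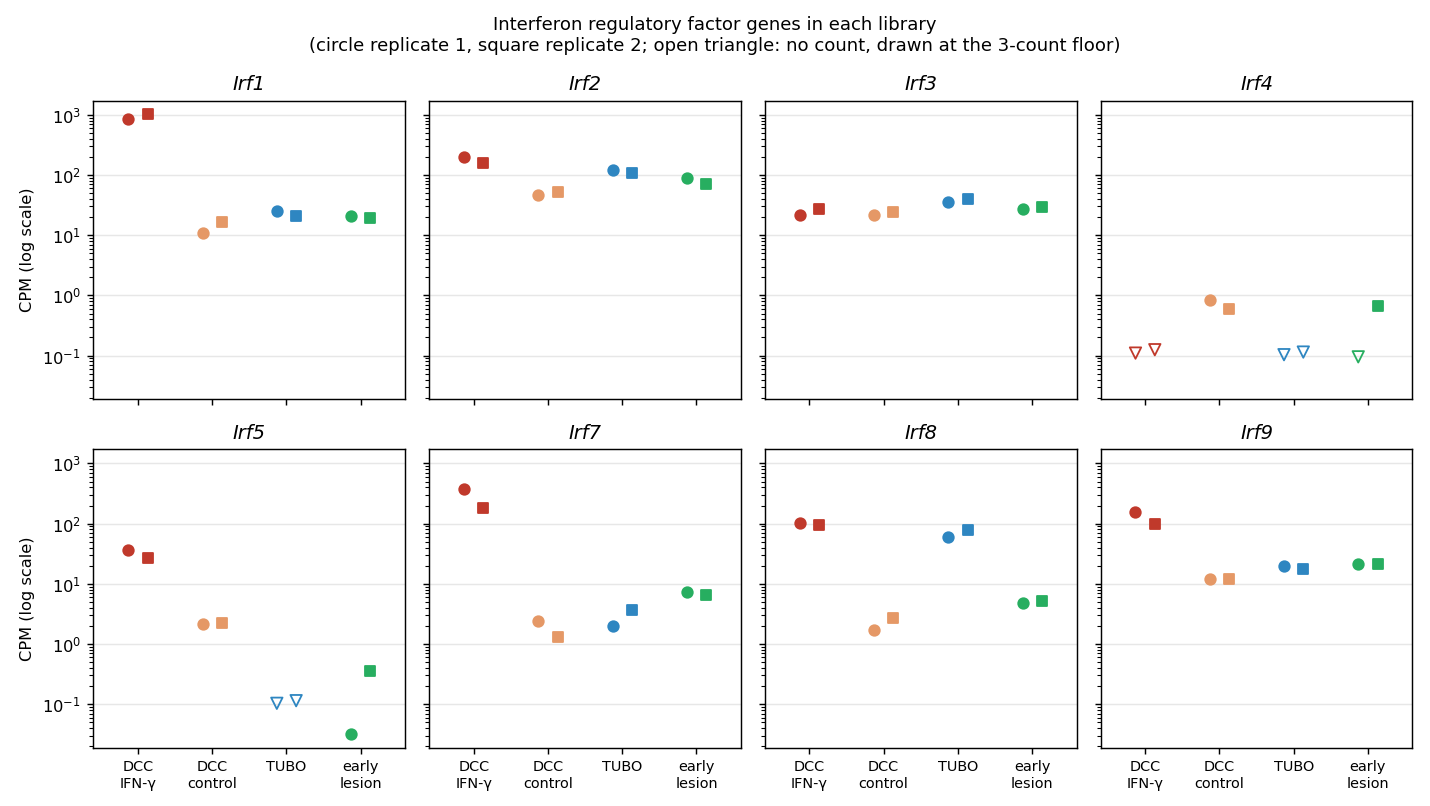
CPM (log axis) of the 8 interferon regulatory factor genes in each library, with replicate 1 as a circle and replicate 2 as a square; an open triangle marks a library with no count, drawn at the level of 3 counts. In DCC IFN-gamma, Irf1, Irf2, Irf5, Irf7, Irf8 and Irf9 lie above both DCC control libraries, while the Irf3 points of these groups interleave.

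Irf1, an activator induced early in the response, had 865 and 1018 CPM in DCC IFN-gamma, against 10.8 and 16.6 CPM in DCC control. The treated libraries lay far above the controls without overlap. The log2 change was 6.09 ± 0.25 (SE; edgeR adjusted p = 7.66e-07), a 68.2-fold rise. Irf2, which binds the same element and is known as an antagonist of Irf1, also rose, but less. It had 202 and 157 CPM in DCC IFN-gamma, against 46.5 and 51.5 CPM in DCC control, a log2 change of 1.87 ± 0.18 (edgeR adjusted p = 7.61e-05). Per kilobase of exon, Irf1 stood at 7.97 and 12 times Irf2 in the treated libraries and at 0.433 and 0.599 times Irf2 in the controls. The ratio was 0.393 and 0.358 in TUBO and 0.440 and 0.513 in early lesion, so Irf1 exceeded Irf2 per length in the DCC IFN-gamma libraries and lay below it in the other 6.

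The promoters of Irf1, Irf2 and Irf8 are shown because they alone among the 8 genes held a match to the motifs searched. These were the gamma-activated site TTCNNNGAA, the core of the interferon-stimulated response element, GAAA and again GAAA with 2 bases of any kind between them, and the ETS-IRF composite, GGAA and then GAAA at the same spacing, that factors such as Irf8 bind together with Spi1. Both strands were searched in RefSeq windows (GRCm38.p6) running over 300 bases, with 250 before and 50 after the start site, and all 8 genes matched by symbol. Irf1, Irf8 and Irf9 have 2 start sites each in that table, and for Irf1 and Irf8 the site whose window held the matches is shown. The 250 bases before the start follow, 5′ to 3′ on the gene's strand (plus in each case), with matches in capitals, at chr11:53769764-53770013 for Irf1, chr8:46739495-46739744 for Irf2 and chr8:120736108-120736357 for Irf8.
Irf1: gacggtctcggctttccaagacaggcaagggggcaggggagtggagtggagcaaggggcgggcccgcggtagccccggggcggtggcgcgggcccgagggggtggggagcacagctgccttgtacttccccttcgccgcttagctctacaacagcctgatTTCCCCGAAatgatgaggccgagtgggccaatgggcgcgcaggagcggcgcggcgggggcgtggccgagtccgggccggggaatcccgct
Irf2: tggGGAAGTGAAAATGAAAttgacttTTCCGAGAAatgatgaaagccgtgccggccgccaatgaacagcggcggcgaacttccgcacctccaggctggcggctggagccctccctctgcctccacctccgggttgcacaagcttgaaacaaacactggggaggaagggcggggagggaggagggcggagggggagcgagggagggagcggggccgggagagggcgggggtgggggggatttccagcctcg
Irf8: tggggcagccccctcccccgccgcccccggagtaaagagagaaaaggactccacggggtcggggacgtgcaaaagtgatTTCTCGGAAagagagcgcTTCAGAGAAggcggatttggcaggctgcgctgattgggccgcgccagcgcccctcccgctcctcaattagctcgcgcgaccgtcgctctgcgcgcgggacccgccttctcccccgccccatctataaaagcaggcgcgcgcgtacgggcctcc
In Irf1 the capitals mark the gamma-activated site TTCCCCGAA, which begins 90 bases before the start. In Irf2 the composite GGAAGTGAAA at 247 bases and the response element core GAAAATGAAA at 241 bases overlap in 1 run of capitals, followed by the gamma-activated site TTCCGAGAA at 224 bases. In Irf8 the capitals mark the gamma-activated sites TTCTCGGAA at 171 bases and TTCAGAGAA at 153 bases. Of 32851 such windows in the mouse genome, 8.30% held the gamma-activated site, 3.44% the response element core and 2.72% the composite. No window of Irf3, Irf4, Irf5, Irf7 or Irf9 held a match, which says only that these letters are not in those windows.

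Irf7, the factor that amplifies transcription of type I interferon genes, had the largest fitted change of the 8. It stood at 371 and 181 CPM in DCC IFN-gamma, against 2.37 and 1.31 CPM in DCC control. Its log2 change was 7.27 ± 0.55 (edgeR adjusted p = 2.08e-04), and the treated replicates differed from each other more widely for Irf7 than for Irf1 or Irf8. Irf9, the DNA-binding subunit of ISGF3, had 158 and 97.5 CPM in DCC IFN-gamma, against 12.1 and 11.8 CPM in DCC control. This made a log2 change of 3.42 ± 0.24 (edgeR adjusted p = 1.14e-05), with replicate 1 above replicate 2 in the treated group, as for Irf7. Irf3, which is made constitutively and activated by phosphorylation, had 21.3 and 26.9 CPM in DCC IFN-gamma, against 21.2 and 24.4 CPM in DCC control. The Irf3 libraries overlapped, and its log2 difference was 0.08 with a 95% interval of -0.35 to 0.51 (edgeR adjusted p = 0.793). The sign of the Irf3 difference turned with upper quartile scaling, at -0.12, a scaling that moved the median of all genes from -0.20 to -0.40 and the share of higher calls among all calls from 58.8% to 40.7%.

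Irf5, which acts below the Toll-like receptor adaptor Myd88 and is known mainly from myeloid cells, had 36.3 and 27.4 CPM in DCC IFN-gamma, against 2.19 and 2.22 CPM in DCC control. The log2 change was 3.85 ± 0.57 (edgeR adjusted p = 0.00164), and the groups did not overlap. Irf8, which directs monocyte and dendritic cell development, had 100.7 and 96.3 CPM in DCC IFN-gamma, against 1.70 and 2.73 CPM in DCC control. Its log2 change was 5.44 ± 0.26 (edgeR adjusted p = 1.09e-06), the next after Irf7 and Irf1 among the genes that rose. Irf4, the factor of plasma cells and activated lymphocytes, had no counts in either treated library, against 14 and 15 counts in DCC control. That is at least 6.15-fold lower against a floor of 3 counts per library, but it did not pass the test (edgeR adjusted p = 0.219) except in a fit of these groups alone (edgeR adjusted p = 0.0262).

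Most macrophage markers moved in the same direction as Irf5 and Irf8. Of all genes tested, 12.6% were called higher with interferon-gamma and 8.83% lower. Mrc1 had 5.39 and 4.96 CPM in DCC IFN-gamma, against 8.77 and 7.68 CPM in DCC control. Cx3cr1 also had a lower mean in DCC IFN-gamma, and neither gene was called. Of 14 macrophage and monocyte markers 10 rose with interferon-gamma, 6 in each fit without a DCC control replicate, and none fell. Their summed level was 1591 to 2168 CPM in DCC IFN-gamma, 148 to 149 CPM in DCC control, 77.9 to 110 CPM in TUBO and 100 to 109 CPM in early lesion. Cd14, a marker set apart after its values were seen, carried most of the sum in TUBO and early lesion. Without it the sum was 1525 to 2124 CPM in DCC IFN-gamma, 136 to 138 CPM in DCC control, 3.89 to 4.001 CPM in TUBO and 5.94 to 10.7 CPM in early lesion. In TUBO, Fcgr1, C1qa, Itgam and Mpeg1 had no counts, and in DCC IFN-gamma no marker of the list was at 0. Of 8 pan-leukocyte markers 5 rose with interferon-gamma, and 1 of 7 dendritic cell markers did (Itgax, at 36.8 and 30.3 CPM in DCC IFN-gamma, against 0.670 and 0.990 CPM in DCC control). Of the markers of B and plasma cells 1, and of those of T and NK cells 2, had enough counts to be tested, and these 3 were not called. The part of these cells in the rise of Irf5 and Irf8 was not tested.

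**Figure D2:**
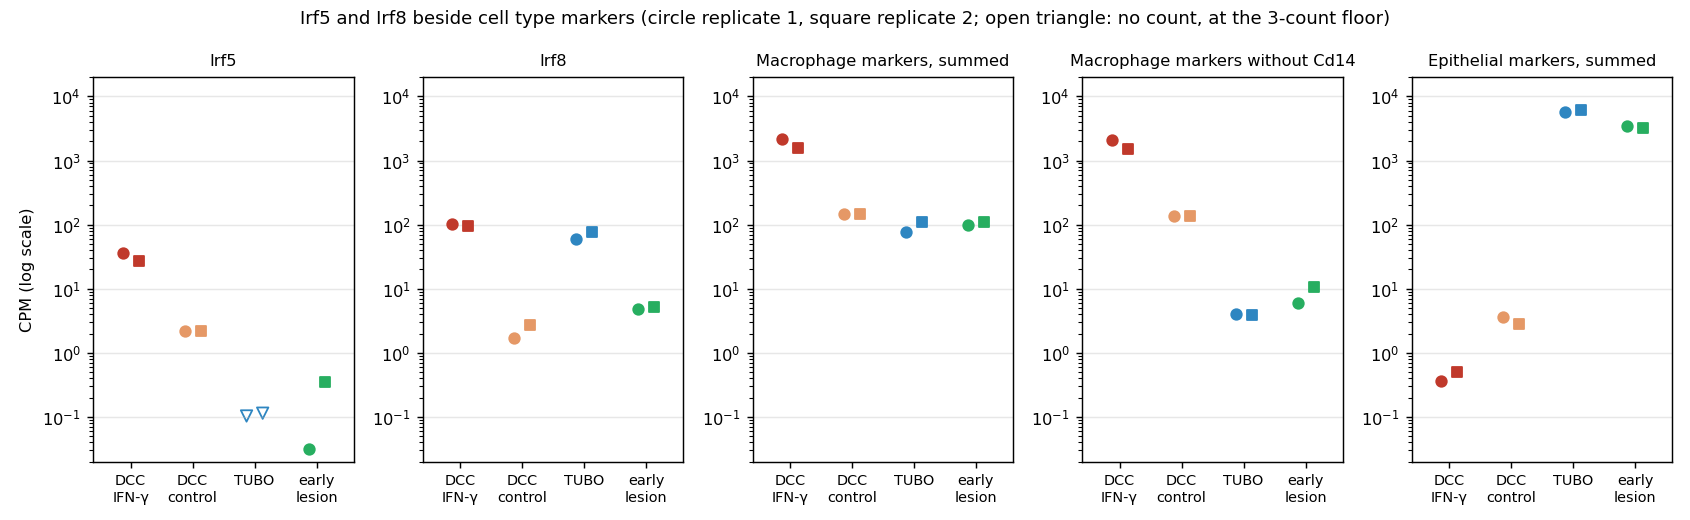
CPM (log axis) of Irf5 and Irf8 and summed CPM of 14 macrophage markers, the same list without Cd14, and 10 epithelial markers, with replicate 1 as a circle and replicate 2 as a square; open triangles mark libraries with no count. Irf5 and the macrophage sum without Cd14 have the same order of groups, with 36.3 and 27.4 CPM of Irf5 in DCC IFN-gamma, while Irf8 reaches 60.3 and 77.4 CPM in TUBO, where that sum is 3.89 to 4.001 CPM.

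Among the known partners of the family, 6 of 9 listed genes rose with interferon-gamma and none fell (8 were tested), beside 12.6% of all genes called higher. Batf2, a basic leucine zipper partner of Irf1, rose by 9.86 ± 0.50 on the log2 scale (edgeR adjusted p = 1.28e-05). It had 76.0 and 114 CPM in DCC IFN-gamma, against 0.183 and 0.0396 CPM in DCC control. The control values lay at and below the level of 3 counts (0.183 and 0.119 CPM), so the size of this rise is imprecise. Stat2, which works with Irf9 in ISGF3, rose by 5.28 ± 0.36. Spi1, the ETS partner of Irf8, had 18.6 and 17.8 CPM in DCC IFN-gamma, against 2.86 and 2.26 CPM in DCC control (edgeR adjusted p = 0.0216). Of the 3 corepressors that bind Irf2, Irf2bpl rose by 1.03 ± 0.14 and Irf2bp2 by 0.60 ± 0.14, and Irf2bp1 differed by -0.01 (edgeR adjusted p = 0.989). The corepressor count was 1 in each fit without a DCC control replicate.

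Upstream, 4 of 9 receptor, kinase and feedback genes of the interferon pathway rose and 1 fell. The shares of all genes called in this comparison were 12.6% higher and 8.83% lower. The feedback inhibitors Socs3 and Socs1 rose by 2.65 ± 0.56 and 1.85 ± 0.42 on the log2 scale and the receptor chain Ifngr2 by 0.72 ± 0.18, while Ifnar1 fell by 0.62. No gene of this list was called without DCC control replicate 1. Of 19 genes that activate Irf3, Irf5 or Irf7, 9 rose and none fell, 4 without DCC control replicate 1 and 5 without DCC control replicate 2. The RNA sensor Ifih1 rose by 5.33 ± 0.47, the DNA sensor Tlr9 by 4.71 ± 1.13 and Dhx58, a regulator of RNA sensing, by 4.33 ± 0.63. Trim21, a ubiquitin ligase that acts on several family members, rose by 5.26 ± 0.45, while Stub1 and Rbck1 of the same list had log2 changes of -0.30 and 0.22 that were not called.

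Of 14 genes listed as Irf1 targets 11 rose and none fell, with a median log2 change of 3.80, beside 12.6% of all genes called higher. The chemokine gene Cxcl10 rose by 12.03 ± 1.02, the guanylate-binding protein gene Gbp2 by 7.34 ± 0.31 and the interferon gene Ifnb1 by 5.55 ± 1.20. Ciita, Vcam1 and Il12b did not pass the test. Cxcl10 had 2635 and 922 CPM in DCC IFN-gamma, against 0.852 and 0.119 CPM in DCC control. In those control libraries 3 counts stand for 0.183 and 0.119 CPM, so the size of the Cxcl10 change is imprecise. All 14 listed targets of ISGF3 rose, with a median log2 change of 7.14, and 8 of them without DCC control replicate 2. Ifit3 rose by 8.77 ± 0.61, Oasl2 by 8.48 ± 0.76 and Rsad2 by 8.16 ± 1.17, genes of the antiviral response. Rsad2 had 164 and 38.5 CPM in DCC IFN-gamma, against 0.730 and 0.0792 CPM in DCC control, so the size of its change is imprecise too. These lists were chosen with earlier results of these data known. Socs1 is also on the receptor list, and Ifnb1 also on the list of interferon genes. The part of Irf1 and of ISGF3 in these rises was not tested. Of 12 type I and III interferon genes only Ifnb1 and Ifna4 had enough counts to be tested. Ifnb1, a target of Irf3 and Irf7, had 15.1 and 3.21 CPM in DCC IFN-gamma, against 0.183 and 0.198 CPM in DCC control, with replicate 1 the higher treated library as for Irf7. It was not called without DCC IFN-gamma replicate 1 or without DCC control replicate 1.

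**Figure D3:**
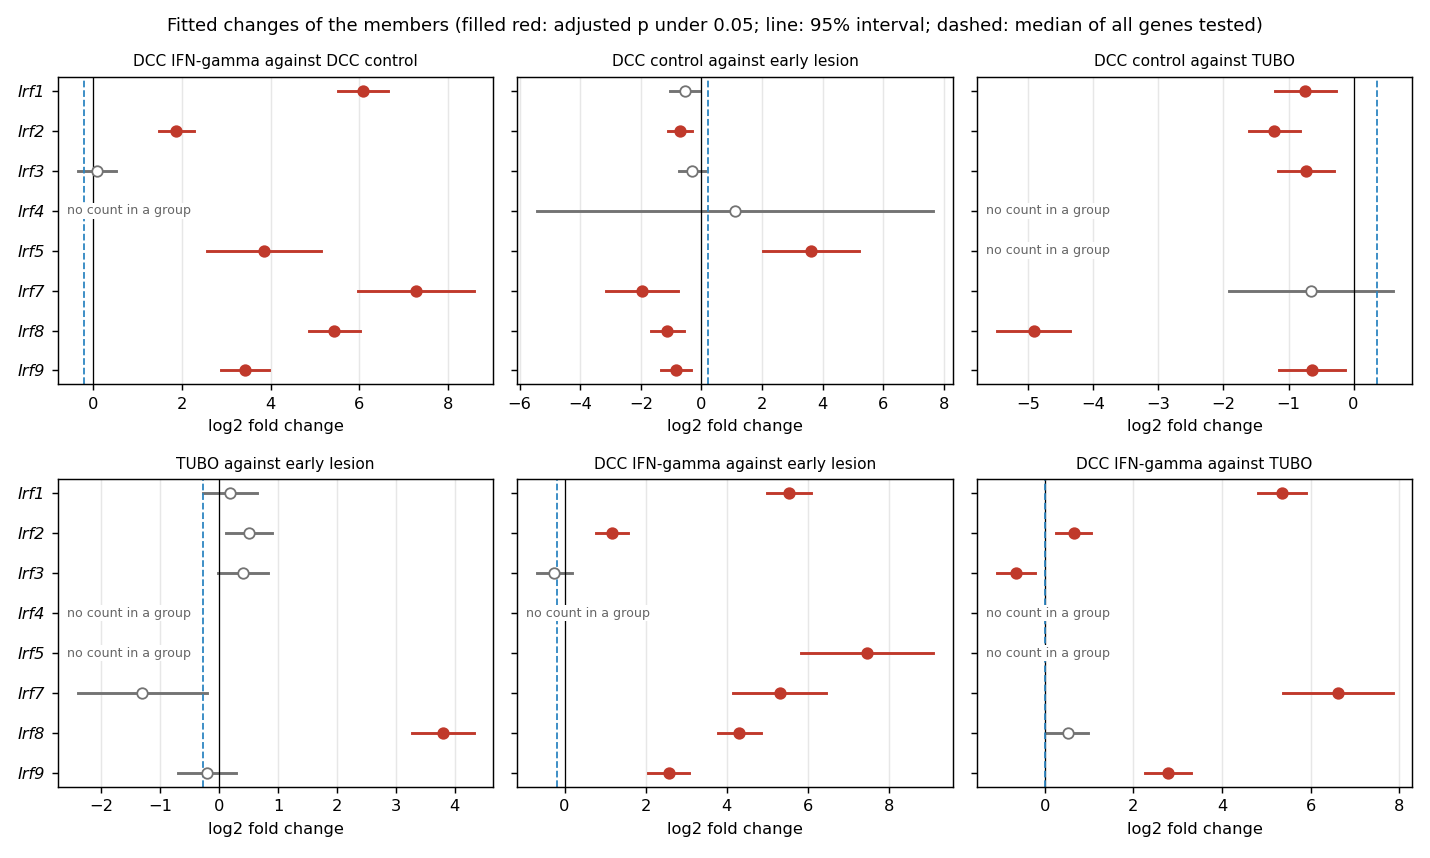
Fitted log2 changes of the 8 genes in the 6 comparisons, with 95% intervals; filled points have an adjusted p under 0.05, the dashed line is the median of all genes tested, and genes with no count in either library of a group are marked in words. In DCC IFN-gamma against DCC control, 6 points lie between 1.87 and 7.27, and in TUBO against early lesion Irf8 is the 1 filled point.

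Per kilobase of exon, the order of the 8 genes was different with and without the cytokine. In DCC IFN-gamma the level was highest for Irf1 (237 ± 27.1 CPM per kb, SD, n = 2), followed by Irf7 (73.0 ± 35.6), Irf2 (24.3 ± 4.26), Irf9 (23.7 ± 7.99), Irf8 (14.0 ± 0.446), Irf5 (10.96 ± 2.17) and Irf3 (7.01 ± 1.14), and Irf4 had no counts. The means of Irf2 and Irf9 lay within their spread. In DCC control Irf3 and Irf2 led with 6.63 CPM per kb each, followed by Irf1 at 3.45, Irf9 at 2.22, Irf5 at 0.759, Irf7 at 0.487, Irf8 at 0.314 and Irf4 at 0.147. Irf7 and Irf8 lay within their spread there. In TUBO the order was Irf2 (15.4), Irf3 (11.02), Irf8 (9.76), Irf1 (5.81), Irf9 (3.47) and Irf7 (0.750), with Irf4 and Irf5 at 0 counts, and the libraries of Irf3 and Irf8 overlapped. In early lesion it was Irf2 (10.8), Irf3 (8.32), Irf1 (5.11), Irf9 (4.0), Irf7 (1.83) and Irf8 (0.701), with Irf4 and Irf5 at 0.0682 and 0.0669. Irf2 and Irf3 thus had the highest mean levels per length in the 3 groups without the cytokine. When the longest transcript replaced the union of exons, 8 of the 32 ranks changed, among them those of Irf8 and Irf3 in TUBO, where Irf8 then stood above Irf3.

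**Figure D4:**
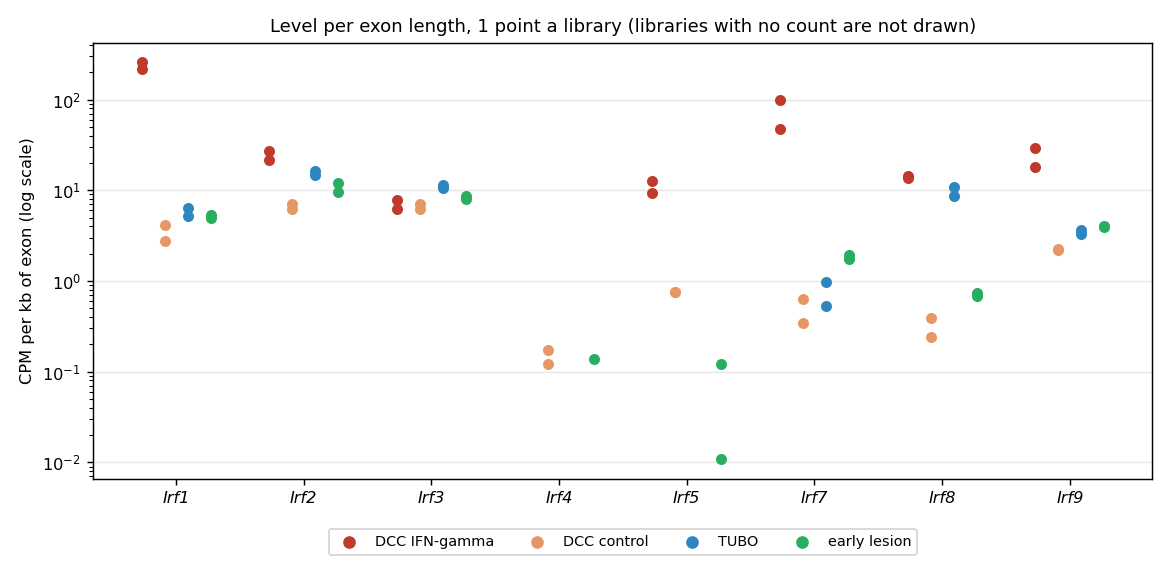
Level per exon length (CPM per kb, log axis) of each gene, with 1 point a library and colours for the 4 groups; libraries with no count are not drawn. Irf1 averages 237 CPM per kb in DCC IFN-gamma, against 3.45 in DCC control, 5.81 in TUBO and 5.11 in early lesion, while the group means of Irf3 lie between 6.63 and 11.02.

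The DCC control cultures were next set against early lesion cells. Summed epithelial markers were 2.81 to 3.59 CPM in DCC control and 3229 to 3396 CPM in early lesion. Summed stromal markers were 7419 to 8545 CPM in DCC control and 14.8 to 17.0 CPM in early lesion. The part of these differences in cell type markers in the differences of the family was not tested. Irf5 was higher in DCC control and 4 genes were lower (Irf2, Irf7, Irf8 and Irf9), against a background of 37.7% of genes called, 19.1% higher and 18.7% lower. The median log2 difference of the 8 genes was -0.63, beside 0.23 for all genes tested. Irf5 had 2.19 and 2.22 CPM in DCC control, against 0.0318 and 0.357 CPM in early lesion, where the values stand for 1 and 8 counts (log2 difference 3.62 ± 0.70, edgeR adjusted p = 0.00292). The size of this difference was 2.61 without early lesion replicate 1, 5.91 without early lesion replicate 2 and 5.93 without that library and DCC control replicate 1. Irf7 had 2.37 and 1.31 CPM in DCC control, against 7.34 and 6.51 CPM in early lesion (log2 difference -1.96 ± 0.50, edgeR adjusted p = 0.0203). Both genes separated the groups without overlap, in opposite directions. Irf8 had 1.70 and 2.73 CPM in DCC control, against 4.77 and 5.13 CPM in early lesion (log2 difference -1.12, edgeR adjusted p = 0.00449). Irf9 had 12.1 and 11.8 CPM in DCC control, against 21.7 and 21.3 CPM in early lesion (log2 difference -0.85, edgeR adjusted p = 0.0133). Irf2 had 46.5 and 51.5 CPM in DCC control, against 88.5 and 71.3 CPM in early lesion (log2 difference -0.70, edgeR adjusted p = 0.00913). For Irf2, Irf8 and Irf9, both DCC control libraries lay below both early lesion libraries. They did so too for Irf1 and Irf3, which were not called. The share of all genes whose libraries lay apart in this way was not computed. Irf1 had 10.8 and 16.6 CPM in DCC control, against 20.9 and 19.7 CPM in early lesion (log2 difference -0.56, edgeR adjusted p = 0.0630) and passed in 6 of 17 alternatives. Irf3 differed by -0.33 (95% interval -0.76 to 0.10) and, like Irf4, did not pass the test.

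Of these 5 calls, the one of Irf5 alone held without early lesion replicate 2 and DCC control replicate 1, which had most reads outside features. That fit left 1 library in each of these groups. The log2 differences were then -0.78 for Irf2, -2.49 for Irf7, -0.80 for Irf8 and -0.88 for Irf9. With all libraries they were -0.70, -1.96, -1.12 and -0.85. The count was 3 without DCC control replicate 1, where Irf2 and Irf9 were not called, 2 without early lesion replicate 1, where Irf2, Irf7 and Irf9 were not called, and 3 in a fit of these groups alone, in which Irf5 had an edgeR adjusted p of 0.157 and Irf8 one of 0.127. Without DCC control replicate 2 the edgeR adjusted p of Irf7 was 0.187. Beside Irf5, 9 of the 14 macrophage markers were higher in DCC control and Cd14 was lower, and the part of macrophages in the Irf5 difference was not tested. Of the 19 activators of Irf3, Irf5 and Irf7, 2 were higher and 7 lower in DCC control. Of all genes, 19.1% were called higher and 18.7% lower. The RNA sensor Tlr3 had 7.67 and 6.81 CPM in DCC control, against 225 and 202 CPM in early lesion.

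Irf4 had few counts in any library, with 0.852 and 0.594 CPM in DCC control (14 and 15 counts) and 0 and 0.669 CPM in early lesion (0 and 15 counts). Olfactory and vomeronasal receptor genes, a set of 1450 chosen after the data were seen because these genes are silent outside sensory tissue, had a count in 47.7% and 11.9% of members in DCC control and in 1.24% and 63.7% in early lesion. In DCC IFN-gamma the shares were 2.0% and 1.17%, and in TUBO 0.966% in both libraries. Per kilobase, the receptor genes averaged 0.130 CPM in DCC control replicate 1 and 0.0896 CPM in early lesion replicate 2, beside 0.174 and 0.136 CPM for Irf4 in those libraries. In DCC control replicate 2 the receptor genes averaged 0.0254 CPM per kb, beside 0.121 for Irf4. Irf5 stood at 0.0109 and 0.123 CPM per kb in early lesion, beside 0.00603 and 0.0896 for the receptor genes in the same libraries. In DCC control, Irf8 stood at 0.242 and 0.387 CPM per kb and Irf7 at 0.629 and 0.346, beside 0.130 and 0.0254 for the receptor genes. The part of such background reads in the counts of Irf4, of Irf5 in early lesion, and of Irf7 and Irf8 in DCC control was not tested.

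Against the TUBO line, Irf5 was again higher in DCC control, and 5 genes were lower (Irf1, Irf2, Irf3, Irf8 and Irf9). The background was 42% of genes called (22.1% higher and 19.9% lower), and this comparison shares its DCC control libraries with the one before. The median log2 difference of the 8 genes was -0.70, beside 0.37 for all genes tested, a median that moved to 0.48 with upper quartile scaling. Irf8 differed most among the lower genes, with 1.70 and 2.73 CPM in DCC control, against 60.3 and 77.4 CPM in TUBO (log2 difference -4.92 ± 0.26, edgeR adjusted p = 2.04e-07). Irf5 had 36 and 56 counts in the DCC control libraries and none in TUBO, at least 20.2-fold higher against a floor of 3 counts per library (edgeR adjusted p = 3.78e-04). Of these factors known from myeloid cells, Irf8 was thus counted in the TUBO line and Irf5 was not. Irf2 had 46.5 and 51.5 CPM in DCC control, against 119.6 and 109 CPM in TUBO (log2 difference -1.22 ± 0.18, edgeR adjusted p = 3.13e-04). Irf1, Irf3 and Irf9 had log2 differences of -0.74, -0.73 and -0.64, with edgeR adjusted p of 0.0166, 0.0115 and 0.0436. Irf7 had 2.37 and 1.31 CPM in DCC control, against 2.0 and 3.66 CPM in TUBO, where the groups overlapped (log2 difference -0.66, 95% interval -1.92 to 0.60), and Irf4 did not pass the test either. Irf7 passed without a filter (edgeR adjusted p = 0.0432), and Irf4 passed in a fit of these groups alone (edgeR adjusted p = 0.0180).

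When the same libraries were dropped, which left 1 DCC control library, the calls of Irf2, Irf5 and Irf8 remained. Those of Irf1, Irf3 and Irf9 did not, at log2 differences of -0.48, -0.63 and -0.66. The same calls were lost without DCC control replicate 1 alone. Irf1 was in addition not called without TUBO replicate 1 (edgeR adjusted p = 0.158), Irf3 without TUBO replicate 2 (edgeR adjusted p = 0.0669), and Irf9 passed in 4 of 16 alternative settings. Macrophage markers were at or near 0 in TUBO apart from Cd14, and Spi1 had 0.0690 and 0 CPM there, so Irf8 at 60.3 and 77.4 CPM stood beside 3.89 to 4.001 CPM for the other 13 macrophage markers together. Of the pan-leukocyte markers 6 of 8 had no counts in TUBO (Coro1a, Laptm5, Cd52, Srgn, Tyrobp and Cd53), and Lcp1 carried the sum of 298 to 384 CPM.

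Between both mammary cancer groups, Irf8 was the gene of the family that was called, higher in TUBO, against a background of 24.1% of genes called, 11.4% higher and 12.7% lower. It had 60.3 and 77.4 CPM in TUBO, against 4.77 and 5.13 CPM in early lesion, a log2 difference of 3.80 ± 0.23 (edgeR adjusted p = 3.95e-06), called under all 16 alternatives. The median log2 difference of the 8 genes was -0.01, beside -0.27 for all genes tested. Irf2 had 119.6 and 109 CPM in TUBO, against 88.5 and 71.3 CPM in early lesion (log2 difference 0.51, edgeR adjusted p = 0.0575). Irf7 had 2.0 and 3.66 CPM in TUBO, against 7.34 and 6.51 CPM in early lesion (log2 difference -1.30, edgeR adjusted p = 0.0897). Irf5 had no counts in TUBO and 1 and 8 counts in early lesion (edgeR adjusted p = 0.0599). Irf2, Irf5 and Irf7 all passed, for a count of 4, when replicate 1 or replicate 2 of DCC IFN-gamma was left out, without a filter and in DESeq2. In a fit of these groups alone the calls beside Irf8 were Irf2, Irf3 (edgeR adjusted p = 0.0476) and Irf7, and without early lesion replicate 1 Irf5 was called beside Irf8. Irf1 had 25.3 and 20.9 CPM in TUBO, against 20.9 and 19.7 CPM in early lesion, a log2 difference of 0.19 (95% interval -0.28 to 0.65) that was -0.06 without TUBO replicate 1. Irf9 differed by -0.20 (95% interval -0.70 to 0.29) and Irf3 by 0.41 (95% interval -0.02 to 0.83).

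The treated DCC cultures were also set against both tumour groups, in comparisons that share the DCC IFN-gamma libraries with each other and with the first comparison. Against early lesion, 6 genes were higher in DCC IFN-gamma (Irf1 by 5.53, Irf2 by 1.17, Irf5 by 7.47, Irf7 by 5.31, Irf8 by 4.32 and Irf9 by 2.57 on the log2 scale), beside 22.7% of genes called higher, 19.2% lower and 41.9% in all. The Irf5 value rests on 1 and 8 counts in early lesion, and it was 6.46 without early lesion replicate 1 and 9.76 without early lesion replicate 2. The comparison had a median of 3.44 for the 8 genes, beside -0.18 for all genes tested, or -0.32 with upper quartile scaling. Against TUBO, 5 genes were higher and Irf3 was lower, beside 24.4% of genes called higher, 19.6% lower and 44% in all. Irf1 was higher by 5.35, Irf7 by 6.61, Irf9 by 2.78 and Irf2 by 0.65 on the log2 scale, and Irf5 was at least 292-fold higher. Irf3 had 21.3 and 26.9 CPM in DCC IFN-gamma, against 36.1 and 39.7 CPM in TUBO (log2 difference -0.65 ± 0.19, edgeR adjusted p = 0.0186), and the call held in 11 of 16 alternatives. It was lost without DCC IFN-gamma replicate 1 and without each TUBO replicate, in a fit of these groups alone (edgeR adjusted p = 0.0535) and when the libraries with most reads outside features were dropped (edgeR adjusted p = 0.0587). Irf2 was not called without DCC IFN-gamma replicate 1 or TUBO replicate 2, with edgeR adjusted p of 0.0514 and 0.0827. Irf8 had 100.7 and 96.3 CPM in DCC IFN-gamma, against 60.3 and 77.4 CPM in TUBO (log2 difference 0.52, 95% interval 0.06 to 0.97, edgeR adjusted p = 0.0637), and it passed in 6 of 16 alternatives.

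Across the 4 groups, Irf1, Irf2, Irf5, Irf7, Irf8 and Irf9 had their highest mean level in DCC IFN-gamma. Irf1 followed the order DCC IFN-gamma, TUBO, early lesion and DCC control, in which TUBO and early lesion overlapped. Irf2 and Irf8 had the same order of groups, and for Irf2 the TUBO and early lesion libraries did not overlap but missed the threshold. Irf7 and Irf9 followed the order DCC IFN-gamma, early lesion, TUBO and DCC control, and for neither gene was the difference of early lesion and TUBO called. Of these 6 genes, Irf5 was the 1 with DCC control next after DCC IFN-gamma. Irf3 was highest in TUBO, where its levels of 36.1 and 39.7 CPM lay above the 27.4 and 29.9 CPM of early lesion, and lowest in the DCC groups, whose differences from early lesion were not called.

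The genes whose profile lay closest to each member are named by the smallest root mean square difference of centred log2 CPM over the 8 libraries, among 11402 genes. For Irf1 these were Stat2, Xaf1 and Irgm2, at 0.50 to 0.51 log2 units. For Irf7 they were Parp14 at 0.31, Il18bp at 0.50 and Rsad2 at 0.56, and for Irf9 Helz2 at 0.25, Mov10 at 0.30 and Abl2 at 0.33. Irf2 lay closest to Whamm (0.13), Nup62 (0.17) and Smcr8 (0.18), and Irf3 to Pfn1, Atp5a1 and Hsbp1, at 0.10 to 0.11. Irf5 lay closest to Il10ra (0.22), Tbxas1 (0.30) and Havcr2 (0.32), each of which had no counts in TUBO. Irf8 had more distant neighbours, among them Psmb8 (0.65) and Cxcl16 (0.83). Psmb8, an immunoproteasome subunit gene, averaged 91.9 CPM in DCC IFN-gamma, 2.35 CPM in DCC control, 52.1 CPM in TUBO and 1.68 CPM in early lesion. Irf4, with at most 15 counts in a library, lay closest to AY512931, Cmah and Zfp488 (0.53 to 0.60). Among the members themselves, the closest pairs were Irf2 and Irf3 at 0.71, Irf2 and Irf9 at 0.77 and Irf1 and Irf7 at 0.85. The measure is not scaled for the size of a gene's changes, so genes that change little lie close whatever their pattern. With interferon-gamma, Irf2 rose by 1.87 on the log2 scale and Irf3 differed by 0.08.

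The genes lie on several chromosomes of GRCm38, as annotated in GENCODE M21, and those with no partner at their locus are Irf2 (chr8:46739732-46847458, plus strand) and Irf4 (chr13:30749226-30766976, plus). Irf1 (chr11:53770014-53778374, plus), Irf3 (chr7:44997648-45002848, plus), Irf5 (chr6:29526625-29541871, plus) and Irf7 (chr7:141262706-141266481, minus) overlap Gm17334, Bcl2l12, Tnpo3 and Phrf1 on the opposite strand. Irf8 (chr8:120736358-120756694, plus) and Irf9 (chr14:55603571-55610030, plus) overlap Gm20388 and Rnf31 on the same strand. An overlap here means that an exon of the member touches the span of another gene, introns included. The labels do not state the strand setting or the annotation of the counting. How reads from the overlapping stretches of these 6 loci were counted is thus not known.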

How the data were processed

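RNA from 8 mouse libraries had been made into libraries with a Nugen Ovation kit, per the labels' protocols. The deposited table holds the authors' raw counts, and the submitters' processing notes list TopHat, HTSeq 0.6.1 and mm10. Which annotation and strand setting were used is not given in the sources used here. Its 5 closing lines, 35.2% to 63.7% of reads, stayed out of library sizes and tests. edgeR 4.0.16 (R 4.3.3) was fitted to 17069 genes that passed filterByExpr with a minimum count of 10, with TMM factors, 1 mean for each of 4 groups and robust quasi-likelihood tests. This left 4 residual degrees of freedom. A call is an adjusted p (Benjamini-Hochberg) under 0.05, and an SE is the log2 change divided by the square root of F. A floor of 3 counts stands for 0.0953 to 0.183 CPM and covers counting error only. In simulated data, the test called 20% to 28% of true 2-fold changes and 51% to 67% of true 4-fold changes, depending on the comparison. A gene that was not called may thus still differ. Each fold size had 100 genes, among 15538 to 15673 genes tested. Of the genes simulated without a change, 7 to 14 were called, so a call can also be false. In DCC IFN-gamma against DCC control, these were 14, beside 26% of 100 2-fold and 54% of 100 4-fold changes called. All unchanged genes had the same simulated mean in every group, unlike the data, where many genes differ. Alternatives were upper quartile and RLE factors, a filter left out or raised to 50 counts in 2 libraries, DESeq2 1.42.0, a replicate block, fits of 2 groups, and libraries left out. Replicates lay further apart than counting error (chi-square 17.4 to 160 times its degrees of freedom).

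The members and gene lists were chosen with earlier results of these data known. From each list the text names up to 3 called genes with the largest change, and every gene of lists of 4 or fewer; a few genes that this rule or the likeness measure names are not reported here. Cd14, Ciita, Cx3cr1, Ifna4, Ifnar1, Il12b, Itgax, Lcp1, Mrc1, Spi1, Tlr3, Vcam1 and the marker genes at 0 were named after their values were seen. Spi1 was read under its older symbol Sfpi1. Of 7 neutrophil and mast cell markers, 6 were in the table and none was called with interferon-gamma.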

Additional observations from a re-analysis of the deposited data

How the results depend on the processing

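Of 747 member changes recomputed under an alternative, 670 kept their direction and their side of the threshold, 39 lost the call, 33 gained it and 5 changed sign. The changes of sign were those of Irf3 in DCC IFN-gamma against DCC control, at -0.12 with upper quartile factors, -0.018 without the 2 libraries with most reads outside genes and between -0.056 (DCC IFN-gamma replicate 2 left out) and 0.24 with 1 library left out, and that of Irf1 in TUBO against early lesion, between -0.060 (TUBO replicate 1 left out) and 0.32. The count of called members was 6 throughout for DCC IFN-gamma against early lesion, and 6 for DCC IFN-gamma against DCC control except 7, with Irf4, when only both groups were fitted. For DCC control against early lesion the count of 5 was 3 when only both groups were fitted, 1 without the 2 libraries, and 2 to 6 with 1 library left out. For DCC control against TUBO the count of 6 was 3 without the 2 libraries and 3 to 6 with 1 left out. For TUBO against early lesion the count of 1 was 4 without a filter, 2 with at least 50 counts in 2 libraries, 4 when only both groups were fitted, 4 by DESeq2 and 1 to 4 with 1 library left out. For DCC IFN-gamma against TUBO the count of 6 was 4 to 7 with 1 library left out. The causes were not tested. Where a fit left a group with 1 library, that library was assumed to vary like the other groups.

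The labels do not say that replicate numbers pair libraries, and same-numbered deviations correlated at -0.43 to 0.10. The replicate block called 2 members in TUBO against early lesion (Irf2 added) and added Irf8 in DCC IFN-gamma against TUBO, with a log2 difference of 0.53. A block with crossed numbers, chosen after seeing the data, called 7172 genes and 4 members in DCC control against early lesion when only both groups were fitted, against 7389 genes and 3 members in that fit without a block. With all 4 groups fitted, 6316 genes were called with the uncrossed block and 6441 without. Irf4 had at most 15 counts in a library, and Irf5 had 1 and 8 counts in early lesion, so the sizes of their differences there are imprecise.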
